A study of Mus musculus with 7 samples.

Results

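The replication-dependent histone genes are a family of small clustered genes that supply most of the histone protein packed onto newly made DNA. Genes were taken by symbol: a probe set belonged when its single gene symbol began with H1f, H2ac, H2bc, H3c or H4c followed by a digit, or with an older Hist symbol. This gave 30 genes of the 19937 genes with a single-symbol probe set, each with 1 probe set: 8 H1, 4 H2A, 9 H2B, 3 H3 and 6 H4 genes. The annotation table lists 67 protein-coding genes of these names, and the other 37 had no probe set of their own. A further 22 histone probe sets carry several symbols and were left out of the family, but are described below as a comparison. Of the 30 genes, 23 lie on chromosome 13, 4 on chromosome 3, 2 on chromosome 6 and 1 on chromosome 15.

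The cells were spontaneously immortalised mouse embryonic fibroblasts, seeded at 50000 per well and grown for 2 days in DMEM with 10% fetal calf serum. Total RNA was measured on 7 Affymetrix whole-transcript arrays: 3 clones expanded from a wild-type mouse, 2 clones from a tenascin-C (Tnc) knockout mouse, called knockout, and 2 clones, the knockdown group, of wild-type fibroblasts that stably carry a transfected shRNA to Tnc. No further treatment was given, and no control-hairpin group was analysed here. No label ties the clones of a group to separate animals, so the p-values reflect only how these clones vary. That variation may be technical in part, but the 2 knockout clones also differed in sex-linked genes, as given below. All values are log2 signals. The comparison set up by the submitters is of tenascin-C proficient against deficient cells.

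Core histones H2A, H2B, H3 and H4 form the protein spool around which DNA is wound, and linker histone H1 binds where the DNA enters and leaves it. Replication-dependent histone mRNAs accumulate in S phase, when DNA is copied, and end in a stem-loop instead of the poly(A) tail of other mRNAs. NPAT activates their transcription, and the stem-loop binding protein SLBP guides their 3' end processing. The symbol rule also takes in genes that differ from this pattern: H1f10 is a replication-independent linker histone, H1f6, H1f7, H2ac1 and H2bc1 are known from male germ cells, and H1f8 from oocytes.

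Tnc itself stood at 10.89, 11.42 and 11.38 on the wild-type arrays, 8.05 and 8.51 in knockout, and 7.34 and 6.52 in knockdown. It fell by 2.95 on the log2 scale in knockout (limma, adjusted p of 0.042) and fell by 4.30 in knockdown, where the adjusted p was 0.0339. The position of its probe set with respect to the deletion was not analysed here. Of 10 fibroblast markers, 9 were above the array median on all 7 arrays, against 0 of 5 endothelial, 1 of 5 macrophage and blood, 1 of 5 epithelial, 0 of 4 skeletal muscle, 2 of 4 neural and glial and 1 of 5 testis germ cell markers. The arrays numbered 2 in both deficient groups stood apart in sex-linked genes. Y-linked Eif2s3y stood at 3.77 (knockout) and 5.46 (knockdown) on those arrays, and between 7.51 and 8.78 on the remaining 5. Xist, the RNA of the inactive X chromosome, was high on knockout array 2 only, at 8.80, with 3.51 to 3.77 elsewhere. Knockout array 1 thus had Y-linked signal with low Xist (Eif2s3y at 7.87), and knockout array 2 the reverse. These 2 clones may not come from 1 animal, which was not tested. Results are therefore also given without both arrays numbered 2. Array medians lay between 5.38 and 5.49, and arrays correlated at 0.979 to 0.990.

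Upstream sequences of the genes on which the results turn, with 1 H2B gene for comparison, are shown to let their core promoters be read side by side. Each run below is the last 200 bases before the annotated start in RefSeq, build GRCm38.p6, written 5' to 3' on the strand of the gene. Capitals mark 4 motifs, each searched on both strands: TATAAA, the box bound by the TATA-binding protein; CCAAT, which is bound by nuclear factor Y; the octamer ATTTGCAT, which is bound by the factor encoded by Pou2f1; and GGCGC, a short GC motif. The H1f1 stretch is chr13:23763468-23763667, plus strand, H1f2 is chr13:23738607-23738806, plus strand, H2bc14 is chr13:21721844-21722043, plus strand, H3c15 is chr3:96239128-96239327, minus strand, and H4c4 is chr13:23581368-23581567, plus strand.
H1f1 upstream: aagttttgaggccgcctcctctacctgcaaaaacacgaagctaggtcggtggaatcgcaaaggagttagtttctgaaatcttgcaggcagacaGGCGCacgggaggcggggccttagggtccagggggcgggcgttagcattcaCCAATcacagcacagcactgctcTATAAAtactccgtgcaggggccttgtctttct
H1f2 upstream: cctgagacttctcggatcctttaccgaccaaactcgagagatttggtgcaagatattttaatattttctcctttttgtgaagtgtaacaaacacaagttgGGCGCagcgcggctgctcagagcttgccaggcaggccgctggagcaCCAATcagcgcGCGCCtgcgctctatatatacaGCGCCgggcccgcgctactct
H2bc14 upstream: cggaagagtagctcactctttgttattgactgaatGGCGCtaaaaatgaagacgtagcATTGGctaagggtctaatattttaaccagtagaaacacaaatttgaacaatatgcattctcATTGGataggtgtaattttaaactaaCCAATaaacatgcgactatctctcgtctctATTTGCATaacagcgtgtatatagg
H3c15 upstream: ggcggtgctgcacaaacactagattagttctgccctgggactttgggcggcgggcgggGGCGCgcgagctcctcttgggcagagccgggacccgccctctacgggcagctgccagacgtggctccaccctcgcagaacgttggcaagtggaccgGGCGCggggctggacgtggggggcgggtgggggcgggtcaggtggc
H4c4 upstream: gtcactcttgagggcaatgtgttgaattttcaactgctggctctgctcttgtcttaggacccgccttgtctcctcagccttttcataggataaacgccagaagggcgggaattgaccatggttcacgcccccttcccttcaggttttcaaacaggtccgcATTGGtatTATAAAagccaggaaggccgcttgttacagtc
H1f1 and H4c4 each hold TATAAA, beginning 33 and 32 bases before the start. The H1f2, H2bc14 and H3c15 stretches hold no exact TATAAA, and only the H2bc14 stretch among these 5 holds the octamer, 25 bases before its start. Variants of TATAAA were not searched: the H1f2 stretch holds tatatata and the H2bc14 stretch tatata.

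Across the family, 26 of the 30 genes had a promoter entry of 250 bases before to 50 bases after the start. No entry was available for H2bc4, H2bc21, H3c7 and H4c14. TATAAA was present in 15 of the 26 (57.7%), against 13.6% of all 32851 promoters of the same length. CCAAT was present in 21 (80.8%, against 37.4%), and GGCGC in 12 (46.2%, against 36.9%). The octamer was present in 8 (30.8%, against 1.74%): 3 of 4 H2A and 5 of 7 H2B promoters had it, and 0 of 8 H1, 0 of 2 H3 and 0 of 5 H4 promoters. The promoters of H2ac1 and H2bc1 overlap on opposite strands, as do those of H2ac8 and H2bc8. In each pair the same octamer and a same TATAAA are counted for both genes, so these promoters are not independent. Matches overlapped one another in 3 of the 26 promoters, and a match describes letters only.

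Of the 30 genes, 27 passed the signal filter (a signal over the array's 25th percentile on 2 or more arrays) and were tested among 16801 genes. H1f8, H2ac8 and H3c7 did not pass, with means of 3.79, 3.49 and 2.85 over the 7 arrays. The testis linker genes H1f6 and H1f7 had means of 4.64 and 6.01, and the testis core histone genes H2ac1 and H2bc1 of 6.66 and 6.02. Of the testis germ cell markers, 3 of 5 were below the 25th percentile on every array. Genes above the array medians on every array included H1f1, H1f2, H1f5, H1f7 and H1f10 among linker histones and H4c3, H4c4, H4c6, H4c9 and H4c14 among H4 genes. The testis genes H2ac1 and H2bc1 were above them as well. Levels of different probe sets are not set against each other, since each probe set has its own affinity and histone genes of a class are nearly identical in sequence, so that a probe set can also pick up transcripts of its paralogues.

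**Figure D1:**
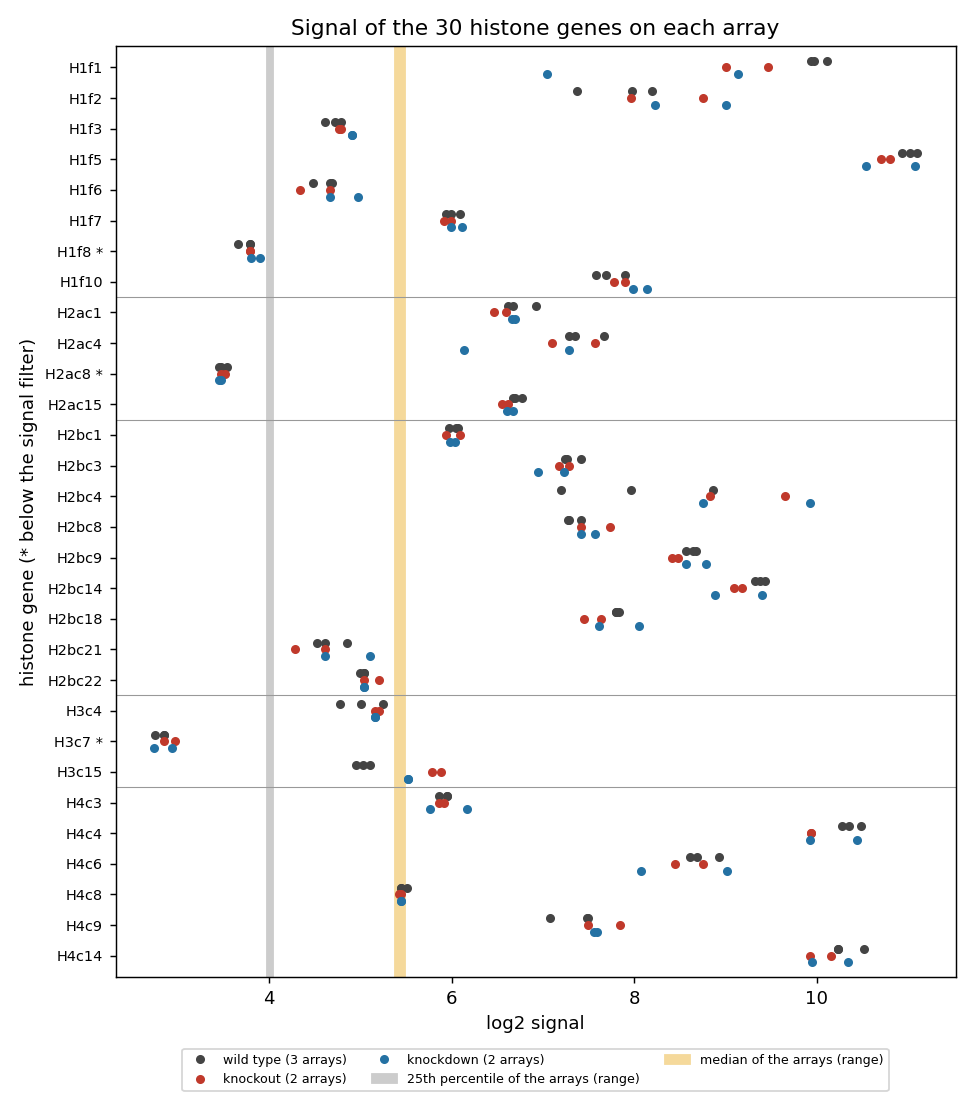
Log2 signal of the 30 histone genes (rows, grouped as H1, H2A, H2B, H3 and H4) on each array: dark points are 3 wild-type, red 2 knockout and blue 2 knockdown arrays, and the bands mark the range of the array medians and 25th percentiles. H1f8, H2ac8 and H3c7, marked with an asterisk, lie below the grey band on every array; the points of H1f1 and H2bc4 spread most widely between arrays.

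In the comparison of knockout with wild type, 1 histone gene was called. H3c15, an H3 gene on chromosome 3, rose, and 0 histone genes fell (limma, adjusted p under 0.05); 0.167% of all genes tested were called in this comparison. At an unadjusted p under 0.05, 1 histone gene was higher (H3c15; 7.33% of all genes) and 1 was lower (H4c4; 5.5% of all genes). The median change was -0.07, with -0.03 over all genes. Higher means in knockout were seen for 9 genes and lower means for 18 (66.7%, against 57.3% of all genes). With the arrays centred on their medians or quantile-normalised the lower genes were 15 (55.6%). The share of all genes was not counted under these scalings. The histone median was -0.03 with centring and -0.05 with quantile normalization, with 0.02 and -0.01 over all genes.

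Knockout arrays lay below all wild-type arrays for 9 of 27 histone genes (33.3%), where 15.3% of all genes did, and above them for 1 (3.7%, against 13.2%). Those below were H1f1, H1f5, H2ac1, H2ac15, H2bc9, H2bc14, H2bc18, H4c4 and H4c14. With centred arrays the counts were 8 below and 6 above, with 9.79% of all genes below and 24% above. With quantile normalization they were 9 below and 3 above, with 16.1% of all genes below and 19% above. In bulk RNA, fewer cells in S phase and less histone mRNA per cell cannot be told apart.

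In knockdown against wild type no histone gene was called (limma, adjusted p under 0.05, 0 of 27), and 0.0179% of all genes were. At an unadjusted p under 0.05, 3 were higher (H1f3, H1f10 and H3c15; 7.12% of all genes) and 1 was lower (H1f1; 6.99% of all genes). The median change was 0.02, with 0.03 over all genes. Means were higher for 15 genes and lower for 12; with centred arrays 14 were lower. Without both arrays numbered 2, the genes with lower means were 16 of 27 in knockdown, at a median of -0.05, and 16 of 27 in knockout, at a median of -0.02. Knockdown arrays lay above all wild-type arrays for 5 genes (18.5%, against 17.5% of all genes), namely H1f2, H1f3, H1f10, H3c15 and H4c9, and below them for 2, H1f1 and H2bc3 (12.9% of all genes).

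The comparisons of knockout and knockdown share the 3 wild-type arrays, so their changes are set side by side without a test of likeness. Against wild type, all 4 deficient arrays lay above for 1 histone gene, H3c15 (4.15% of all genes), and below for 1, H1f1 (3.55% of all genes). The mean of both deficient groups gave 0 called histone genes (limma; 0.0298% of all genes), and at an unadjusted p under 0.05 2 higher (6.48% of all genes) and 1 lower (5.78% of all genes).

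**Figure D2:**
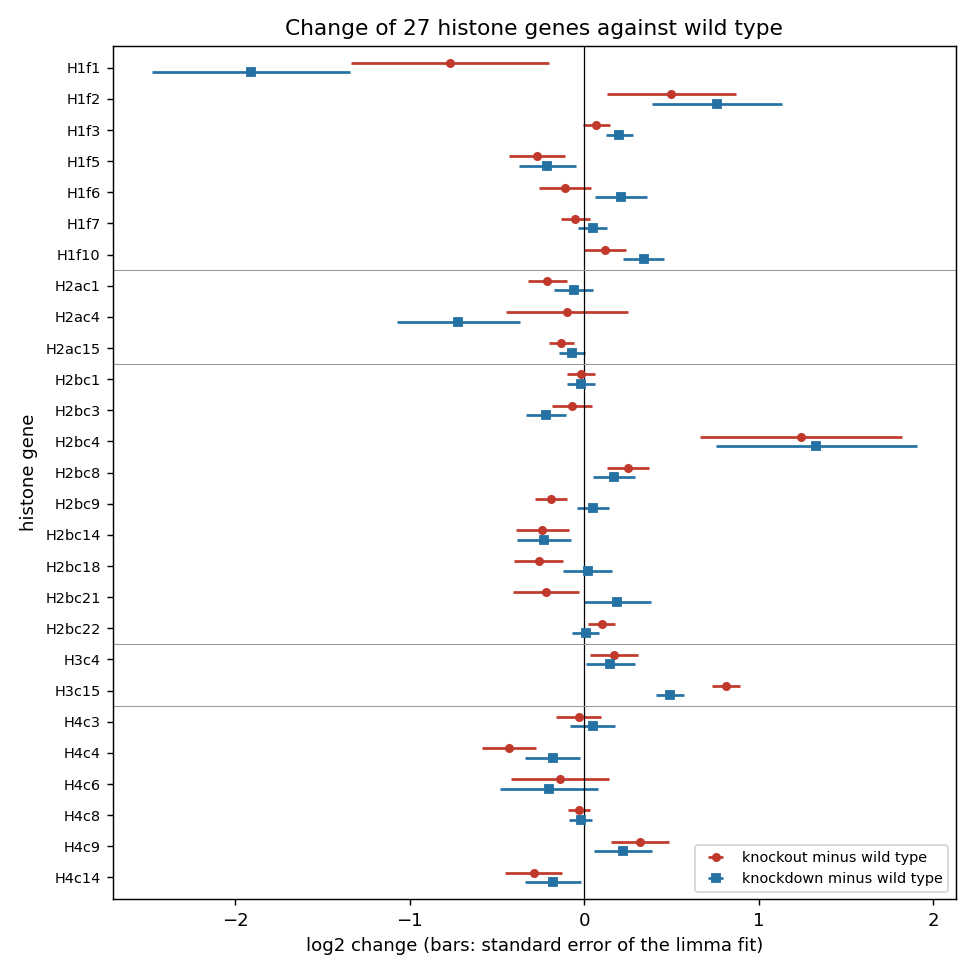
Log2 change of the 27 tested histone genes in knockout (red circles) and knockdown (blue squares) against wild type, with bars for the standard error of the limma fit; both share the same 3 wild-type arrays. Most points lie near 0, while H1f1 lies to the left and H1f2, H2bc4 and H3c15 to the right in both comparisons; H3c15 in knockout is the one called change.

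Among the core histones, H3c15 carried the called change. Its signal was 5.11, 4.95 and 5.03 in wild type, 5.89 and 5.79 in knockout, and 5.52 and 5.52 in knockdown. Every knockout array lay above every knockdown array, and every knockdown array above every wild-type array. H3c15 rose by 0.81 ± 0.0796 (SE) in knockout, or 1.75-fold (limma, adjusted p = 0.042). In knockdown it was 0.49 ± 0.0796 higher, or 1.40-fold, which did not pass the threshold (adjusted p = 0.124), and the difference of 0.32 between knockout and knockdown did not pass either (adjusted p = 0.167).

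The direction of H3c15 held when arrays were left out, and its call did not. Leaving out any 1 of the 7 arrays gave changes of 0.76 to 0.86 with adjusted p between 0.0599 and 0.147, and leaving out both arrays numbered 2 gave 0.86 with adjusted p = 0.163. Its wild-type signals lie below the array medians. The platform annotation ties this probe set to the gene through 1 cDNA record, while 9 probe sets that each list several H3 symbols also cover the class. Of those 9, 8 had lower means in knockout, and 1 of the 8 was below the 25th percentile on every array. H3c4, the other tested H3 gene, stood at 4.78, 5.01 and 5.25 in wild type, 5.21 and 5.16 in knockout and 5.16 and 5.16 in knockdown, within the wild-type range.

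Linker histone genes moved in both directions, and none of the 7 tested passed the threshold (limma, 0 called in each comparison). H1f1 stood at 10.11, 9.97 and 9.94 in wild type, 9.46 and 9.01 in knockout, and 9.14 and 7.05 in knockdown. All 4 deficient arrays were below the wild-type arrays, and knockdown array 2 lay far below the other 6. The differences from wild type were -0.77 ± 0.567 (SE) in knockout (1.71-fold lower, adjusted p = 0.589) and -1.91 ± 0.567 in knockdown (3.76-fold lower, adjusted p = 0.238). The knockdown value rests much on 1 array: it was -0.86 without knockdown array 2 and -2.96 without knockdown array 1.

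H1f2, a linker histone gene of the large chromosome 13 cluster, stood at 7.37, 7.98 and 8.20 in wild type, 8.75 and 7.96 in knockout, and 9.00 and 8.23 in knockdown. Wild-type array 1 was lowest, and array 1 of each deficient group was highest. Knockout differed by 0.50 ± 0.372 (SE; adjusted p = 0.592) and knockdown by 0.76 ± 0.372 (adjusted p = 0.43). The knockdown arrays lay just above wild type, and 1 of the knockout arrays lay within it.

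H1f5 stood at 11.10, 10.93 and 11.02 in wild type, 10.80 and 10.70 in knockout, and 10.54 and 11.08 in knockdown. The knockout arrays were below all wild-type arrays, while of the knockdown arrays 1 lay below and 1 within the wild-type range; the knockout difference was -0.27 ± 0.163 (SE; adjusted p = 0.53). H1f10, the replication-independent linker gene, went from 7.69, 7.90 and 7.58 in wild type to 7.78 and 7.90 in knockout and 7.99 and 8.14 in knockdown. Both knockdown arrays were highest, by 0.34 ± 0.119 on average (adjusted p = 0.292). H1f3 showed the same order at a low signal, with 4.62, 4.79 and 4.72 in wild type and 4.91 on both knockdown arrays (difference 0.20, adjusted p = 0.338).

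The 3 tested H2A genes all had lower means in both deficient groups, under each scaling, with medians of -0.13 in knockout and -0.07 in knockdown, and none was called (limma). H2ac4 stood at 7.67, 7.35 and 7.29 in wild type, 7.10 and 7.57 in knockout, and 6.14 and 7.29 in knockdown. Only knockdown array 1 was far from the rest, and the knockdown difference was -0.72 ± 0.35 (SE; adjusted p = 0.426), or -0.15 without that array. H2ac15 and the testis gene H2ac1 had knockout arrays below all wild-type arrays, by 0.13 and 0.21 on average (adjusted p = 0.518 and 0.484).

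Of the 9 H2B genes, 3 had higher and 6 lower means in knockout, 6 had higher and 3 lower means in knockdown (5 lower in both with centred arrays), and none was called (limma). H2bc4 stood at 7.20, 7.96 and 8.86 in wild type, 9.65 and 8.83 in knockout, and 9.92 and 8.75 in knockdown. The wild-type clones alone spanned 1.66 log2 units, and the groups overlapped. The differences of 1.24 ± 0.577 (SE; 2.35-fold, adjusted p = 0.446) and 1.33 ± 0.577 (2.52-fold, adjusted p = 0.38) were the highest of the tested histone genes in each comparison and did not pass. As for H1f2, wild-type array 1 was lowest and array 1 of each deficient group was highest. The annotated H2bc4 gene spans 8282 bases, where H1f2 spans 725.

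Other H2B genes varied less. H2bc14 stood at 9.43, 9.38 and 9.32 in wild type, 9.09 and 9.18 in knockout, and 8.89 and 9.40 in knockdown; the knockout arrays were below wild type and the knockdown arrays overlapped it. H2bc18 stood at 7.83, 7.80 and 7.80 in wild type, 7.64 and 7.45 in knockout and 7.61 and 8.05 in knockdown, so the knockdown arrays lay on both sides of a narrow wild-type range. H2bc9 had a knockout difference of -0.19 ± 0.0916 (SE; adjusted p = 0.462), with both knockout arrays lowest. H2bc8 was 0.25 ± 0.12 higher in knockout (adjusted p = 0.452), and H2bc3 was 0.22 lower on average in knockdown (adjusted p = 0.463). H2bc22 showed 3 different values over the 7 arrays, and repeated values were also found in 16 other histone genes, 17 of 30 in all (56.7%, against 46.2% of all probe sets).

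Among H4 genes, 5 of 6 had lower means in knockout and 4 of 6 in knockdown, with medians of -0.09 and -0.10, and none was called (limma); with centred or quantile-normalised arrays 3 of 6 were lower in knockout and 4 of 6 in knockdown. H4c4 stood at 10.48, 10.35 and 10.28 in wild type, 9.94 and 9.94 in knockout, and 9.93 and 10.44 in knockdown. Both knockout arrays and knockdown array 1 were below wild type, and knockdown array 2 was within it. The knockout difference was -0.43 ± 0.156 (SE; 1.35-fold lower, adjusted p = 0.343). H4c14, on chromosome 3, had the same 3 arrays below wild type: 10.52, 10.23 and 10.23 in wild type, 9.92 and 10.16 in knockout, and 9.95 and 10.34 in knockdown (knockout difference -0.29 ± 0.161, adjusted p = 0.508). H4c9 went the other way, from 7.08, 7.49 and 7.48 in wild type to 7.84 and 7.49 in knockout and 7.56 and 7.59 in knockdown, with differences of 0.32 and 0.22 (adjusted p = 0.485 and 0.602).

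**Figure D3:**
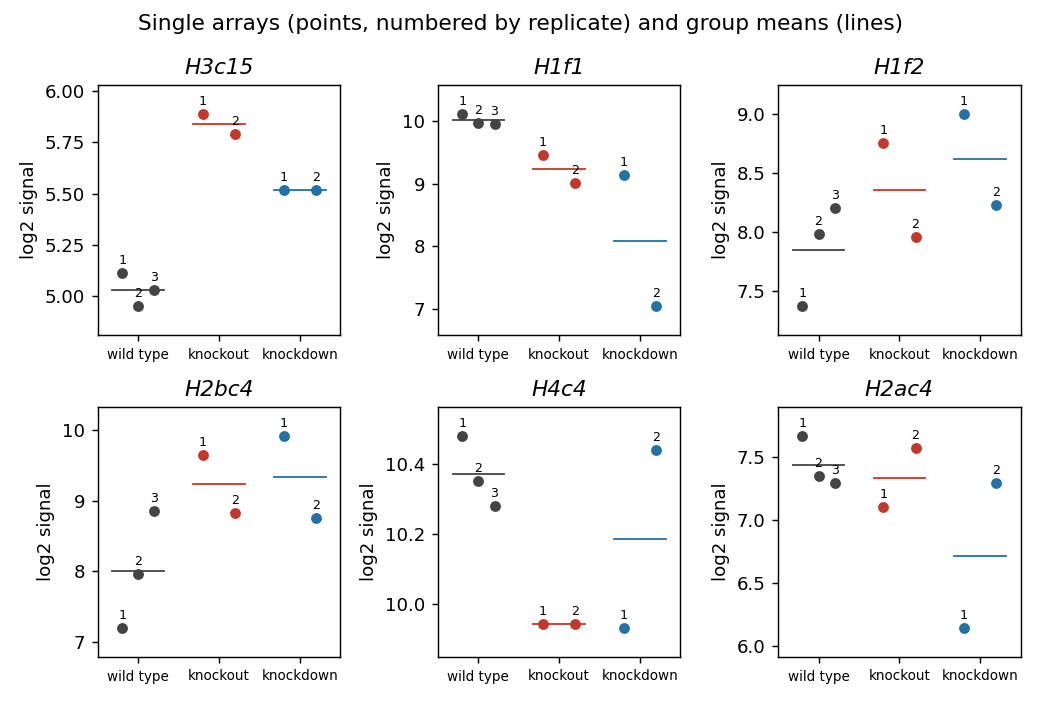
Log2 signal of 6 histone genes on single arrays (points, numbered by replicate) and group means (lines) in wild type, knockout and knockdown, each panel with its own axis that does not start at 0. H3c15 separates the groups; H1f1 is lowest on knockdown array 2 (7.05); H1f2 and H2bc4 are lowest on wild-type array 1; H4c4 and H2ac4 differ between the 2 knockdown arrays.

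Knockout was also compared directly with knockdown, which tests whether their changes differ. No histone gene was called (limma, 0 of 27; 0.375% of all genes), and at an unadjusted p under 0.05 1 gene, H3c15, was higher in knockout (9.05% of all genes) and 0 were lower (8.87%). Means were higher in knockout for 10 genes and lower for 17, at a median of -0.07 (-0.05 over all genes); with centred arrays 12 were lower, at a median of 0.01. The groups did not overlap for 5 genes: H3c15 was higher in knockout (17.8% of all genes), and H1f3, H1f10, H2ac1 and H2bc9 were lower (27.2% of all genes).

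Histone genes differed between the knockdown clones. The median absolute gap between the 2 knockdown arrays was 0.29 over the 27 histone genes and 0.14 over all genes. The 2 knockout arrays had gaps of 0.14 and 0.16. Wild-type arrays 1 and 2 had gaps of 0.16 and 0.11, and wild-type array 3 was not compared in this way. Array 2 was above array 1 in knockdown for 18 of 27 histone genes (66.7%, against 45.9% of all genes), by a median of 0.15. Genes with the higher signal on knockdown array 2 included H1f5, H2ac4, H2bc14, H2bc18, H4c4, H4c6 and H4c14, and those with the lower signal included H1f1, H1f2 and H2bc4. Of 35 genes of S phase and DNA replication, 26 were also higher on knockdown array 2 (74.3%), by a median of 0.17. In knockout, 25 of these 35 were higher on array 2 (71.4%, median 0.13). Of the 27 histone genes 12 were (44.4%, median -0.06), near the 41% of all genes (median -0.02). In wild type, 8 of the 35 were higher on array 2 than on array 1 (22.9%, median -0.14). So were 10 of the 27 histone genes (37%, median -0.04) and 45.2% of all genes. The part of S phase in the histone values was not tested.

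The 22 probe sets with several histone symbols add transcripts that the single-symbol rule leaves out. Lower means in knockout were seen for 21 of the 22, at a median of -0.19; 21 were lower after quantile normalization and 20 after centring. Knockout arrays lay below all wild-type arrays for 13 and above for 0, again where 15.3% of all genes lay below. The 13 became 15 with quantile normalization (16.1% of all genes) and 10 with centring (9.79%). These counts took no signal filter, while the shares of all genes are over those that passed it. Among the 13 is an H3 probe set with a mean of 3.10, below the 25th percentile on every array. None was called (limma, smallest adjusted p = 0.262), and 2 were lower at an unadjusted p under 0.05. In knockdown 13 of 22 were lower, at a median of -0.05, with 2 below and 3 above all wild-type arrays (12.9% and 17.5% of all genes). These probe sets list the same symbols many times over: each of the 9 H3 probe sets has 12 symbols, so they are not independent measures.

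By class, lower means in knockout were seen for 8 of 9 H3, 5 of 5 H4 and 6 of 6 H2B probe sets of this kind, and for the single H2A probe set and the single one shared by H1 and H2B. One H4 probe set listing 11 symbols stood at 10.77, 10.44 and 10.45 in wild type, 10.08 and 10.21 in knockout, and 10.17 and 10.68 in knockdown. As for H4c4, both knockout arrays and knockdown array 1 were below wild type, and knockdown array 2 was within its range. One H2B probe set listing 15 symbols stood at 9.83, 9.49 and 9.48 in wild type, 8.94 and 9.18 in knockout, and 7.80 and 8.71 in knockdown, below wild type in both deficient groups. Both were chosen after their values were seen.

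**Figure D4:**
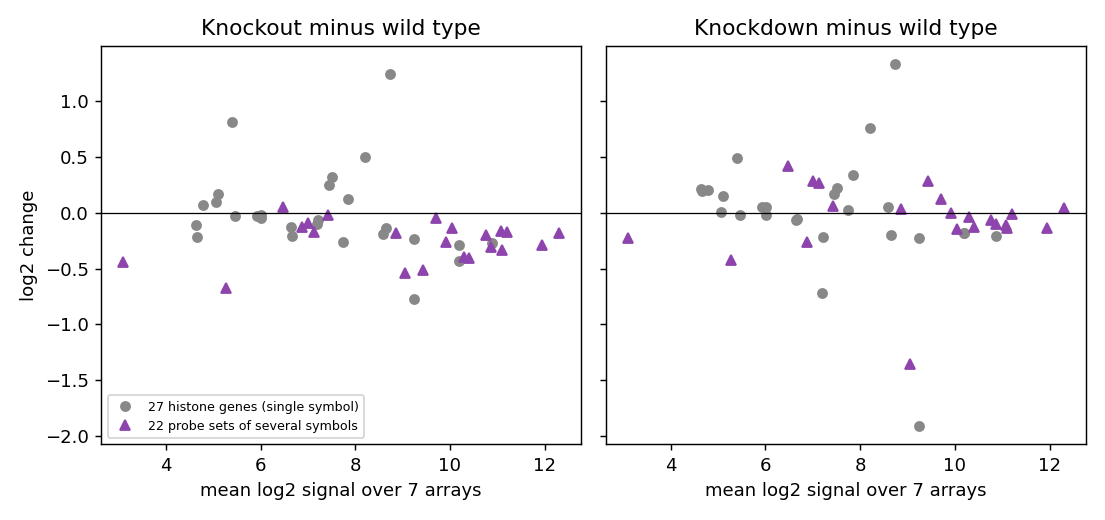
Log2 change (vertical axis) against mean log2 signal over 7 arrays (horizontal axis) for 27 histone genes with a single symbol (grey circles) and 22 probe sets with several histone symbols (purple triangles), in knockout at left and knockdown at right. In knockout 21 of the 22 triangles lie below 0 (20 after centring); in knockdown 13 do (14 after centring).

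Genes that serve the histone genes were examined by list. In the list for histone mRNA transcription and 3' end processing, 0 of 19 were called in either comparison with wild type (limma); at an unadjusted p under 0.05, 1 was higher and 2 were lower in knockout (7.33% and 5.5% of all genes), and 6 were lower in knockdown (6.99%). The median change was -0.03 in knockout (0.02 with centred arrays) and -0.12 in knockdown, with 10 and 15 genes lower (52.6% and 78.9%, against 57.3% and 43.2% of all genes). Npat, which encodes the activator of histone gene transcription, stood at 7.95, 7.76 and 7.77 in wild type, 8.04 and 8.13 in knockout, and 7.34 and 7.45 in knockdown. Knockout was highest and knockdown lowest, with no overlap between groups and differences from wild type of 0.26 (adjusted p = 0.337) and -0.43 (adjusted p = 0.166). Upf1, an RNA helicase that takes part in the decay of histone mRNA, was lower in both, by 0.17 and 0.40 (adjusted p = 0.512 and 0.19). Ncbp1, a cap-binding protein, differed by -0.07 and -0.49 (adjusted p = 0.841 and 0.196).

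Histone chaperones, which carry new histones to DNA, were lower on average in both deficient groups without a call: 14 of 17 had lower means in each (82.4%, against 57.3% and 43.2% of all genes), with medians of -0.11 in knockout and -0.29 in knockdown (limma, 0 called; 2 and 8 lower at an unadjusted p under 0.05, against 5.5% and 6.99% of all genes). Nasp, a chaperone of H1 and H3, stood at 8.01, 8.23 and 8.21 in wild type, 7.67 and 7.93 in knockout, and 6.96 and 7.57 in knockdown. All deficient arrays were below wild type, with differences of -0.35 (adjusted p = 0.504) and -0.88 (adjusted p = 0.174). Asf1a and Asf1b, which hand H3 and H4 to the assembly factors, were below wild type on all 4 deficient arrays, with differences of -0.43 and -0.32 in knockout and -0.53 and -0.29 in knockdown. Nap1l1, an H2A and H2B chaperone, differed by -0.18 in knockout and -0.44 in knockdown (adjusted p = 0.485 and 0.162).

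Replication-independent histone variants were divided, with 4 of 8 higher in knockout and 5 of 8 in knockdown (5 and 4 with centred arrays) and none called (limma; 0 also at an unadjusted p under 0.05 in both). Macroh2a2, a large H2A variant, stood at 6.89, 7.11 and 5.98 in wild type, 4.73 and 6.51 in knockout, and 6.61 and 7.24 in knockdown. Knockout array 1 alone was far below the others (difference -1.04 ± 0.59 SE, adjusted p = 0.514). H2ax, the variant phosphorylated at DNA breaks, was 0.37 higher in knockout and 0.35 in knockdown (adjusted p = 0.617 and 0.645), with wild-type array 1 lowest at 8.35.

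Genes of S phase and DNA replication had lower means for 26 of 35 in knockout (74.3%, against 57.3% of all genes). In knockdown 24 of 35 were lower (68.6%, against 43.2%). With centred arrays 22 of 35 were lower in knockout, at a median of -0.04, with 0.02 over all genes. In knockdown 26 of 35 were then lower, at a median of -0.17, with 0.00 over all genes. As deposited, the medians were -0.09 and -0.14, and none was called (limma). At an unadjusted p under 0.05, 1 was higher and 4 were lower in knockout (7.33% and 5.5% of all genes), and 8 were lower in knockdown (6.99% of all genes). E2f8, a repressor of the E2F family, stood at 7.87, 7.68 and 7.69 in wild type, 6.67 and 7.18 in knockout, and 7.53 and 7.20 in knockdown. All deficient arrays were below wild type, and the knockout difference was -0.82 ± 0.18 (SE; adjusted p = 0.156). Ccne2, which encodes a cyclin of S phase entry, had the order of Npat: 7.44, 7.49 and 7.33 in wild type, 7.70 and 7.58 in knockout, and 7.02 and 6.92 in knockdown (differences 0.22 and -0.45, adjusted p = 0.38 and 0.162). Ccna2, the S phase cyclin, stood at 10.60, 10.51 and 10.57 in wild type and at 10.21 and 10.24 in knockout, below it, with 10.50 and 10.73 in knockdown (knockout difference -0.33, adjusted p = 0.217).

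Neighbours in the chromosome 13 cluster did not all share a direction. Some adjacent measured genes had lower means in both deficient groups: H2bc14, H2ac15 and H1f5, and also H2bc3, H2ac4, H1f1, H2bc1 and H2ac1. Others, such as H2bc8 and H3c4, had higher means in both. The stretch from H4c4 to H1f1 was mixed. In annotated order, H4c4 (-0.43 in knockout) is followed among the measured genes by H2bc4 (1.24), H1f6 (-0.11), H4c3 (-0.03), H1f2 (0.50), H2bc3 (-0.07), H2ac4 (-0.10) and H1f1 (-0.77). In knockdown the same genes differed from wild type by -0.18, 1.33, 0.21, 0.05, 0.76, -0.22, -0.72 and -1.91. On chromosome 3, H3c15 (0.81 in knockout) lies between H2bc21 (-0.22) and H4c14 (-0.29) in the order of the measured genes.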

How the data were processed

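Values are log2 signals of 34760 probe sets on 7 arrays, 1 deposited column per array. The authors used affy in R 2.8.0, per the submitters' processing notes; the sources used here do not give the summarisation, background correction or normalization, and the log2 scale was read from the deposited values (1.81 to 13.7). Probe sets with 1 symbol were kept, and the one of highest mean was used per gene. Platform symbols were updated through the RefSeq table of GRCm38.p6, which matched all 30 histone genes; promoter sequences come from RefSeq in the same build. Genes above the array's 25th percentile on at least 2 arrays were tested, 16801 in all. Group means were fitted over the 7 arrays together (limma 3.58.1, R 4.3.3; two-sided; 4 residual degrees of freedom, prior 2.06), with Benjamini-Hochberg adjustment over all genes tested in each of 4 comparisons; the fit was tested on simulated data. "Rose" and "fell" mean an adjusted p under 0.05. The number of arrays limits precision.

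Genes named are those called, the 3 of smallest p per class and comparison, the 2 of highest mean per class, and the 3 of smallest p per list in each comparison with wild type; examples were taken from these. Members and lists were chosen with earlier results of these data known. Same-numbered arrays correlated at -0.07 to 0.20 in their deviations and no label pairs them. The alternatives were no filter, a stricter filter, quantile normalization, centring, the replicate number as a block, array weights, limma's trend option, the mean of a gene's probe sets, fits of the compared groups alone, the shared probe sets as members, the family without H1f10, H1f6, H1f7 and H2bc1, leaving out single arrays, and leaving out both arrays numbered 2; 2 further ones were chosen after seeing the data.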

Additional observations from a re-analysis of the deposited data

Results flagged for a closer look

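Npat and Ccne2 differed between the deficient groups, with both knockout arrays above and both knockdown arrays below all wild-type arrays. Only the histone genes and the list genes named for a small p were searched for this order. Outside that search, Lsm10 and Hinfp of the list for histone mRNA transcription and 3' end processing had it too. Their knockout minus knockdown differences were 0.31 and 0.37 (limma, adjusted p = 0.18 and 0.179). Knockout minus knockdown was 0.69 ± 0.101 (SE) for Npat (limma, adjusted p = 0.0622), and 0.67 ± 0.0951 for Ccne2 (adjusted p = 0.0611), so neither difference passed the threshold. Npat encodes the activator of histone gene transcription that cyclin E and its kinase phosphorylate, and Ccne2 encodes a cyclin E. Over all genes tested, 2985 (17.8%) had knockout arrays above both knockdown arrays, wherever the wild-type arrays lay. This is a looser pattern than the order of Npat and Ccne2. The share of all genes with the wild-type arrays in between was not counted.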

How the results depend on the processing

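Of 21 alternatives for the family count and median, 17 apply to single genes; under those 17 the direction of H3c15 in knockout did not change, and its call was lost in 10. The number of called histone genes in knockout fell from 1 to 0 with the replicate block (H3c15 0.81, limma, adjusted p = 0.221). Calls over all genes then fell from 28 to 2. With only the compared groups fitted the number was also 0 (adjusted p = 0.112), with 6 of all genes called. Leaving out any 1 wild-type array gave 0 as well, with 3 to 14 of all genes called. The call was also lost without any 1 knockout or knockdown array and without both arrays numbered 2. There 1 array is left in a group, and H3c15 changed by 0.76 to 0.86. Over the 21 genes of higher mean (an alternative chosen after seeing the data) 0 were called, because H3c15 is not among them. Its own fit is unchanged there. Among histone and list genes the replicate block changed no other call, and the histone median in knockout was -0.09 with it. Crossing the numbers of the knockout and knockdown arrays as a block called 0 of all genes, as did the numbers as given. The family median also moved with the shared probe sets added (-0.14 in knockout, -0.09 in the deficient comparison, -0.13 in knockout minus knockdown) and without both arrays numbered 2 (-0.02 in knockout, -0.05 in knockdown, -0.08 in the deficient comparison, 0.00 in knockout minus knockdown). It was -0.08 in the deficient comparison with the stricter filter, -0.10 over the genes of higher mean, and 0.01 in knockout minus knockdown with centring, which also called 1 gene of the S phase list there, Ccne2 (0.74, adjusted p = 0.0438). Leaving out 1 array gave medians of -0.09 to -0.02 in knockout, -0.05 to 0.15 in knockdown, -0.09 to 0.00 in the deficient comparison and -0.09 to 0.03 in knockout minus knockdown. Genes with small differences changed sign. In knockout minus knockdown these were H2ac15 (0.02) and H4c3 (0.00) with centring, and H1f6 (0.00), H2bc18 (0.03), H4c4 (0.00) and H4c3 (0.16) without both arrays numbered 2. Leaving out single arrays gave ranges across 0. In knockout minus knockdown they were -0.30 to 0.09 for H4c14, with 0.01 without knockout array 1, -0.50 to 0.00 for H4c4 and -0.28 to 0.13 for H4c3. For H2ac4 in knockout the range was -0.34 to 0.14, with 0.01 without wild-type array 1. In knockdown they were -0.12 to 0.03 for H2ac1, -0.48 to 0.03 for H2bc14, -0.44 to 0.07 for H4c4 and -0.38 to 0.01 for H4c14. The causes were not tested. Signals of H3c4, H1f3 and H2bc22 lay below the array medians on every array, and those of H3c15 did so in wild type only. A low signal can limit the size of a change that these arrays show, which was not tested.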
